A study of Rattus norvegicus with 10 samples.

Results

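In liver samples taken after a burn, the arrays of 4 h and 24 h stood on one side and the arrays of 1 h and 8 h on the other for a set of genes that is described here. The grouping holds 8 of the 10 arrays of the study, 4 arrays of 4 h and 24 h and 4 arrays of 1 h and 8 h, and leaves out the 2 sham arrays. It is not a group of the labels. It was chosen from the measured values themselves, because among the ways of dividing the burn arrays that keep each time whole it gave the most differences. The differences between the 2 sides are therefore a description and were given no test.

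The study measured total RNA from rat liver with 10 expression arrays of 8799 probe sets, of which 2 were from sham control rats (0 h) and 2 each from rats at 1, 4, 8 and 24 h after burning. The labels name no strain, sex, age, extent of burn or other treatment. Whether the arrays of 1 time stand for different animals, a pool or 1 RNA measured again is not stated, so the p-values reflect the spread between arrays, part or all of which may be technical.

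A severe burn sends the liver into the acute phase response, in which hepatocytes turn from making carrier proteins and bile acids toward making defence proteins, under the direction of cytokines and stress hormones. The same hepatocytes break down heme, oxidise drugs through cytochrome P450 enzymes and build ribosomes in the nucleolus. Liver makes no digestive proenzymes, which belong to the acinar cells of the neighbouring pancreas.

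Before the log2 step, every intensity below a floor of 36.4 (the 25th percentile of an array, taken at its median over the arrays) was set to that floor. The 5285 probe sets that exceeded the array's median in 2 or more of the 10 arrays were kept. Below, a probe set is called separated where the arrays of the 2 sides did not overlap and their geometric means differed at least 2-fold. Among all 8799 probe sets, 112 were separated higher at 4 h and 24 h and 114 lower, 2.57% of the array in both directions. Among the 5285 kept, 104 were higher (1.97%) and 108 lower (2.04%), together 4.01%, and 643 (12.2%) did not overlap at any fold. The 212 separated probe sets matched 73 genes higher and 80 genes lower, with 37 unnamed. The lower side reached further: 27 lower and 11 higher probe sets differed over 4-fold, and 14 lower and 2 higher over 8-fold. The smallest differences inside the limit were 1.00 and -1.01 on the log2 scale, and the largest of the non-overlapping probe sets just outside it were 0.996 and -0.998. The separated shares were alike over the range of signal, from 1.44% to 2.20% higher and from 1.82% to 2.35% lower over 4 equal classes of mean level.

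The largest differences of all were in the digestive proenzymes of the exocrine pancreas. Of 23 tested marker genes of that tissue, 18 were separated lower at 4 h and 24 h and none higher, beside 1.97% of all 3143 tested genes separated lower. Their median log2 difference was -2.76, beside 0.01 over all tested genes. They supplied 10 of the 12 genes with the largest differences on the lower side and 21 of the 108 separated lower probe sets.

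Prss1, a trypsinogen, read 5.7 and 4.9 on the 4 h arrays and 3.5 and 13.2 on the 24 h arrays, all under the floor, against 5339.9 and 4261.7 at 1 h and 1314.2 and 1265.1 at 8 h. The sham arrays read 1040.3 and 1038.9, between the 2 sides, and the difference was at least 68.1-fold. Ctrb1, a chymotrypsinogen, gave 78.7 and 89 at 4 h and 52.8 and 44.8 at 24 h, against 3820.7 and 4760.8 at 1 h and 1607.4 and 1360.3 at 8 h, a 39.4-fold difference with sham at 354.8 and 577.1. For both genes the 3 sets of arrays kept the order 4 h and 24 h, sham, 1 h and 8 h with no overlap.

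Cpb1, a carboxypeptidase, lay under the floor on all 4 arrays of 4 h and 24 h (8.4 to 31.1) and between 504.7 and 2980.2 on those of 1 h and 8 h, at least 32.3-fold apart. Pnlip, the pancreatic lipase that digests dietary fat, read 7.5 to 80.2 against 492.3 to 2529.2 on D88534_s_at and 246.9 to 312.1 against 2336.2 to 7254.4 on M58369_at. Its 2 probe sets thus had the same sides, 21.9-fold apart on the former, a value that depends on the floor because both 4 h arrays lay under it. Cela2a, an elastase, stayed above the floor everywhere, with 292.3 and 293.6 at 4 h and 382.4 and 314.8 at 24 h against 5097 and 6764.3 at 1 h and 1622.8 and 1514.2 at 8 h, 9.52-fold apart.

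Further pancreatic products followed the same sides. Pla2g1b, a secreted phospholipase, was 24.8-fold lower at 4 h and 24 h, with 3 of those 4 arrays under the floor. Cpa1, another carboxypeptidase, read 57.7 to 110.5 against 532.1 to 2562 (13.6-fold). Rnase1, a secreted ribonuclease, read 55.8 to 68.4 against 330.7 to 1911.2 (12.3-fold), with sham at 146.1 and 129.6. The trypsinogens Prss2 (10.6-fold, 3 of 4 arrays under the floor) and Prss3b (at least 10.3-fold, 4 of 4 under it) resemble Prss1 in sequence, and signal shared between their probe sets was not tested. Reg1a, a secreted protein of acinar cells, was at least 4.26-fold lower on M62930_at. Amy2a3, an amylase read after its values were seen, was the brightest example, at 663.9 to 1021.1 against 3051.7 to 9304.9.

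**Figure D1:**
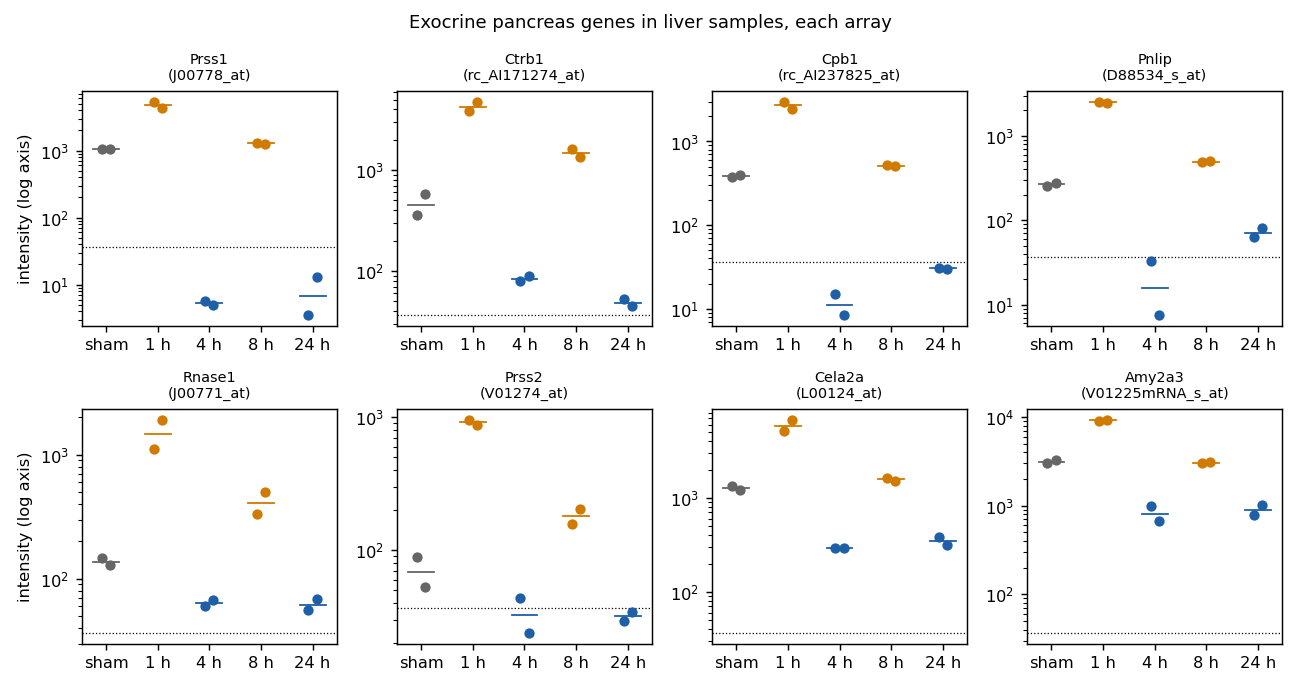
Intensity (log axis) of 8 exocrine pancreas genes on each array, grouped as sham (grey), 1 h and 8 h (orange) and 4 h and 24 h (blue); bars are geometric means of the 2 arrays of a time and the dotted line is the floor of 36.4. In each panel the blue points lie below the orange ones, and for Prss1 and Cpb1 all blue points lie under the floor.

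Summed over the 23 genes, the intensity was 3017.9 to 3676.1 on the 4 arrays of 4 h and 24 h, 15647.9 and 15723.4 at 8 h, 49442.9 and 52388.4 at 1 h, and 11546.1 and 11766.1 in sham. The summed level at 8 h was thus far nearer sham than the level at 1 h was. Of the 23 genes, 5 (Cpb1, Pnliprp1, Prss1, Prss3b and Prss3bl1) lay at or under the floor on all 4 arrays of 4 h and 24 h, and 8 had sham between the 2 sides with no overlap on either. The part of pancreatic tissue or RNA in the samples was not tested. In bulk RNA, fewer cells of a type and less RNA per cell cannot be told apart.

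None of the tested genes of the 10 other marker lists was separated by its brightest probe set, though 2 dimmer probe sets, of Tap1 in the lymphocyte and antigen presentation list and of Lep in the adipose list, were. Among hepatocyte markers, which check the label of the tissue, the summed intensity was 256821.5 to 316626 at 4 h and 24 h and 314305.6 to 359234.7 at 1 h and 8 h, so the sides overlapped and all 13 genes were tested. Kupffer cell and phagocyte markers summed to 5883.8 to 6823.9 against 7846.1 to 8332.4, and lymphocyte and antigen presentation markers to 9199.1 to 10689.5 against 14009.3 to 15866.8. In both immune lists the sums of the 4 arrays of 4 h and 24 h lay below all other arrays, sham included (7498.5 and 7879.5, then 12964.1 and 12505.5). Such sums weigh the brightest genes most. By gene the median log2 difference between the sides was -0.32 for hepatocyte markers. It was -0.31 for Kupffer cell and phagocyte markers and -0.21 for the lymphocyte list. In that order 10 of 13, 9 of 10 and 13 of 16 genes lay below 0, beside 1542 of 3143 tested genes. From sham, the median at 4 h and 24 h was -0.12, -0.29 and -0.03. The part of these cell types in the differences below was not tested.

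**Figure D2:**
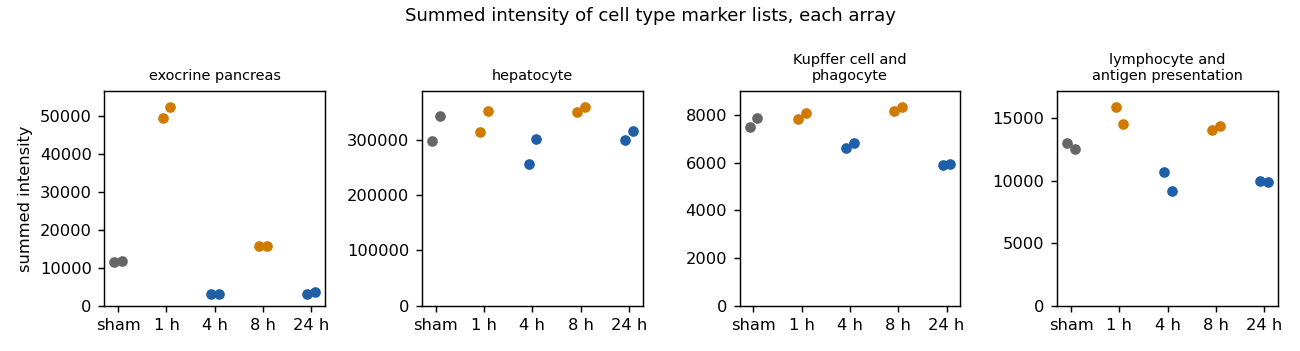
Summed intensity of 4 cell type marker lists on each array (linear axes from 0; grey sham, orange 1 h and 8 h, blue 4 h and 24 h). The pancreas sum is 49442.9 and 52388.4 at 1 h, 15647.9 and 15723.4 at 8 h and 3017.9 to 3676.1 at 4 h and 24 h, the hepatocyte sums overlap, and both immune sums are lowest at 4 h and 24 h.

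Array controls were looked at beside the split. Of 59 control probe sets 31 were tested and 0 were separated. The mean log2 intensity of 9 spiked-in transcripts ran from 11.56 to 12.38 at 4 h and 24 h and from 12.06 to 12.81 at 1 h and 8 h. The ratio of the 3' to the 5' end of beta-actin, a sign of RNA integrity, was 0.77 to 1.16 and 1.06 to 1.46, and that of GAPDH 1.06 to 1.46 and 1.16 to 1.45, so the sides overlapped in all of these. Single times still differed. The spike mean was highest at 8 h (12.65 and 12.81) and lowest at 4 h (11.56 and 11.76). The beta-actin ratio was highest at 8 h (1.25 and 1.46), and the first 8 h array had the lowest median intensity, 100.1. The part of this in differences that rest on 8 h was not tested. Arrays of one time correlated at a median of 0.9534, 1 h with 8 h at 0.9251, 4 h with 24 h at 0.9212, and arrays of different sides at 0.9093. With sham, the arrays of 1 h and 8 h correlated at a median of 0.9342, higher than 1 h with 8 h, and those of 4 h and 24 h at 0.9165. The split was chosen from these values, so the correlations among burn arrays are a description.

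The sham arrays took no part in choosing the split, and they lay nearer to 1 h and 8 h. In 82 of the 104 higher and 85 of the 108 lower separated probe sets the sham mean was closer to the mean of 1 h and 8 h, beside 57.1% of all tested probe sets. The arrays of 4 h and 24 h lay beyond sham while those of 1 h and 8 h overlapped it for 68 of the 104 and 55 of the 108. The share of all tested probe sets with this joint place was not counted. The separated probe sets were chosen for sides that do not overlap, so nothing is drawn from these counts. Whatever the place of 1 h and 8 h, the arrays of 4 h and 24 h lay above sham for 10.9% and below it for 15.4% of all tested. Sham lay between the sides, with no overlap, for 7 and 19 probe sets, beside 54 of all tested (1.02%). Such a place requires that the sides do not overlap, so these 54 all lie among the 643 that did not overlap at any fold. Median differences from sham were 1.18 at 4 h and 24 h and -0.30 at 1 h and 8 h for the higher set, and -1.25 and 0.46 for the lower set. Both differences share the sham arrays.

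Comparisons other than the split were tested with limma, which pools the spread of all 5 groups and adjusts p over the 5285 probe sets. They use the burn arrays from which the split was chosen. Their counts among the separated probe sets are therefore not independent of that choice. The mean of the 4 burn times differed from sham for 73 probe sets higher and 83 lower, 2.95% of those tested, and 48 of them were among the 212 separated. The 24 h arrays differed from the 4 h arrays for 118 higher and 184 lower (5.71%), with 30 among the separated. The 8 h arrays differed from the 1 h arrays for 101 higher and 139 lower (4.54%), with 38 among the separated, of which 23 were in the lower set and were called lower at 8 h, beside 2.63% of all tested. The number of calls depended on what was taken as spread. With the 8 burn arrays as 1 group, which counts the differences between burn times as spread, the first comparison gave 2 calls. The other comparisons lean on the spread shared by all 5 groups. With only the 4 arrays of the 2 times the last gave 0 (983 at an unadjusted p under 0.05) and the second 71. Of the separated calls, 10 of 48, 11 of 30 and 16 of 38 outlasted the removal of each array in turn. A gene is said to have risen or fallen below where no single array ended the call.

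The pancreatic genes differed within the 1 h and 8 h side. Of the 23 genes, 16 were called lower at 8 h than at 1 h and none higher, beside 2.61% of all tested genes called lower, and the median change was -1.84 on the log2 scale. Reg1a fell by 2.60 (SE 0.17, adjusted p = 0.000781), Cpb1 fell by 2.39 (SE 0.16, adjusted p = 0.000781) and Prss2 fell by 2.35 (SE 0.27, adjusted p = 0.00438), each with n = 2 and 2. The Reg1a value is from M62930_at, on which only the 1 h arrays exceeded the array's median. That probe set was thus kept for testing only through the group where it was high. The Prss2 probe set exceeded the array's median only on arrays of 1 h and 8 h, the side where it was high. Prss1 fell by 1.89 (SE 0.16, adjusted p = 0.00146). Between 4 h and 24 h none of the 23 genes was called by its brightest probe set, beside 5.15% of all tested genes, and 2 had an unadjusted p under 0.05. The 5 genes at the floor on all 4 arrays could not be called there. The dimmer Pnlip probe set was higher at 24 h by 0.96 (adjusted p = 0.0206), a call that ended without either 4 h array or without the second 24 h array.

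Hmox1 and Cyp2b2 were among the genes higher at 4 h and 24 h, while the lists that hold them had medians below 0. Of 15 tested genes of heme and iron, 1 was separated higher and the median was -0.26, and of 36 cytochrome P450 and flavin monooxygenase genes 2 were separated higher with a median of -0.04, beside 1.69% of all tested genes separated higher. Hmox1, heme oxygenase, which opens the heme ring, read 2663.1 and 2983.7 at 4 h and 1518.1 and 1714 at 24 h, against 396.7 and 374.1 at 1 h and 469.9 and 516 at 8 h on J02722cds_at. All burn arrays lay above sham (249.1 and 154.2), and the sides were 4.9-fold apart. Its other probe set had the same order, with 2824.8 to 5303.9 against 691.7 to 1319.3. The mean of the burn times rose over sham by 2.30 (SE 0.19, adjusted p = 0.00233) and by 2.06 (SE 0.19, adjusted p = 0.00372) on the 2 probe sets, while 24 h and 4 h did not differ at the threshold (-0.81, adjusted p = 0.118).

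Cyp2b2, a drug-inducible cytochrome P450, read 12926 and 13929.2 at 4 h and 30009.9 and 28172.1 at 24 h, against 1494.1 and 1346.2 at 1 h and 10571.5 and 10103.2 at 8 h. The 1 h arrays lay below sham (2899.2 and 3529.7) and the 8 h arrays above it, so this gene was separated although 8 h stood closer to 4 h than to 1 h. It rose from 1 h to 8 h by 2.87 (SE 0.16, adjusted p = 0.000561). A second Cyp2b2 probe set, J00728cds_f_at, was not separated, since its 4 h arrays (6719.6 and 7111.3) overlapped those of 8 h (6709.1 and 7124). Close relatives of this subfamily may share signal, which was not tested. Por, the reductase that feeds electrons to these enzymes, was 2.3-fold higher on its largest probe set (3656 to 5229 against 1576.4 to 2263), and its other 2 probe sets were higher by 0.92 and 0.83 on the log2 scale and not separated.

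Tdo2 and Serpina3n were also higher. Of 16 tested glucocorticoid-induced genes, which include Tdo2, 1 was separated higher and 2 lower, and the median was -0.22. Of all tested genes, 1.69% were separated higher and 1.97% lower. Tdo2, tryptophan dioxygenase, which opens the tryptophan ring, read 8047.7 to 11872.6 against 3255.5 to 4061, and sham was lower still at 2582.1 and 2386.7. The burn mean was 1.24 above sham on the log2 scale (adjusted p = 0.00447), a call that ended without the second sham array (adjusted p = 0.065). Serpina3n, a protease inhibitor of the acute phase, read 20338.7 and 24065.6 at 4 h and 31974.2 and 32059.2 at 24 h against 8722.1 and 8614.4 at 1 h and 16598.5 and 14902 at 8 h. Its burn mean was 1.23 above sham (adjusted p = 0.0041), which ended without the second sham array (adjusted p = 0.0529). Across 25 tested positive acute phase genes Serpina3n was the only one separated higher, beside 1.69% of all tested genes. Of the 25, 17 lay below 0, beside 1542 of 3143 tested genes, and the median difference was -0.14. No gene of this list was separated lower by its brightest probe set, but 1 dimmer probe set was.

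Il1r1, a receptor for interleukin 1, was high at 4 h alone, with 572.1 and 577.2 against 102 and 118.9 at 24 h and 71.5 to 100.1 on the arrays of 1 h and 8 h on M95578_at. It met the rule because 24 h lay just above the other side, and it fell by 2.38 from 4 h to 24 h (SE 0.22, adjusted p = 0.00155). On this probe set only the 4 h arrays exceeded the array's median. It was thus kept for testing only through the group where it was high. Its other 2 tested probe sets, M95578_g_at and U14010_g_at, were higher by 0.84 and 2.12 and not separated. On U14010_g_at 4 h (411.4 and 540.6) did not stand alone. Sham there read 267.8 and 306.4 and the first 24 h array 260.1, against 24.9 to 117.8 at 1 h and 8 h. Stat3, which relays interleukin 6 signals, was 2.72-fold higher at low signal, 109.9 to 265.9 against 17.1 to 104.2. The Stat3 probe set exceeded the array's median only on arrays of 4 h and 24 h, so it too was kept only through the side where it was high. Ctsl, a lysosomal protease, read 4858.6 and 4580.3 at 4 h and 3470.6 and 3217.2 at 24 h on S85184_g_at against 1370.8 and 1355 at 1 h and 801.9 and 725.6 at 8 h. Its brighter probe set differed by only 0.56 on the log2 scale, though its arrays of 4 h and 24 h (8444.3 to 10078) all lay above the others (5306.7 to 7072.9).

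For 11 of the 104 higher probe sets the arrays of 1 h and 8 h lay below sham while those of 4 h and 24 h overlapped it. Of all 5285 tested probe sets, 944 had the arrays of 1 h and 8 h above or below sham without overlap. The joint place of the 11 was not counted over all tested, so nothing is drawn from their number. Junb, an immediate early transcription factor, read 656.9 and 741.9 at 4 h and 1314.3 and 1357.7 at 24 h, against 381.2 and 305 at 1 h and 477.8 and 343.8 at 8 h on X54686cds_at, with sham at 1028.2 and 996.4. Its 4 h arrays thus lay below sham and its 24 h arrays above. Abcc3, an export pump for conjugated bile acids, read 238.6 to 306.9 against 18.5 to 86.2, with sham at 261.2 and 249.3 inside the former range. Egr1, another immediate early factor, is not one of the 11: it read 1063.4 to 2004.4 against 525.7 to 622.8 on AF023087_s_at, and sham (928.8 and 967.9) lay between. Of its 4 tested probe sets, 2 were separated and 2 differed by 0.15 and 0.17. Slc5a3, which carries myo-inositol into cells, was 2.9-fold higher than at 1 h and 8 h, where all arrays lay below sham. Its probe set exceeded the array's median only on arrays of 4 h and 24 h and was kept for testing only through them.

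Psat1, an enzyme of serine synthesis, was under the floor on all 4 arrays of 1 h and 8 h (5.8 to 14.5) and read 105.4 and 71.1 at 4 h and 106.7 and 70.7 at 24 h, at least 2.38-fold higher. Sham lay above every burn array at 221.8 and 154.1, and the size of a fall below sham would depend on the floor. Its other 2 probe sets were higher by 0.29 and 0.65 and not separated.

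Metabolic and regulatory genes completed the higher side. Plin2, a coat protein of lipid droplets, read 4517.2 and 4872.5 at 4 h and 10090.9 and 9851.3 at 24 h against 1950.1 to 3123.4. Aldoa, a glycolytic aldolase, held a narrow band of 1232.8 to 1377.9 at 4 h and 24 h against 432.5 to 633, 2.48-fold apart. Foxa3, a hepatocyte transcription factor, was 3.62-fold higher (704.8 to 1203.1 against 174.2 to 448.2), and its other probe set was separated the same way. Ube2g2, a ubiquitin-conjugating enzyme of protein quality control, had the largest difference of all named higher genes at 7.55-fold, with 1055.1 to 1712.2 against 106 to 244.3, but its 2 sham arrays read 97.4 and 424. Rnf4, a ubiquitin ligase, Mrpl38, a mitochondrial ribosomal protein, and the uncharacterised LOC102547700 were 3.67-fold, 3.71-fold and 4.07-fold higher. Their low arrays spread widely, as in Rnf4 with 31.6 to 180.6, and the other probe set of Mrpl38 was not separated. The separated Mrpl38 probe set exceeded the array's median only at 4 h and 24 h and was kept only through the side where it was high.

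**Figure D3:**
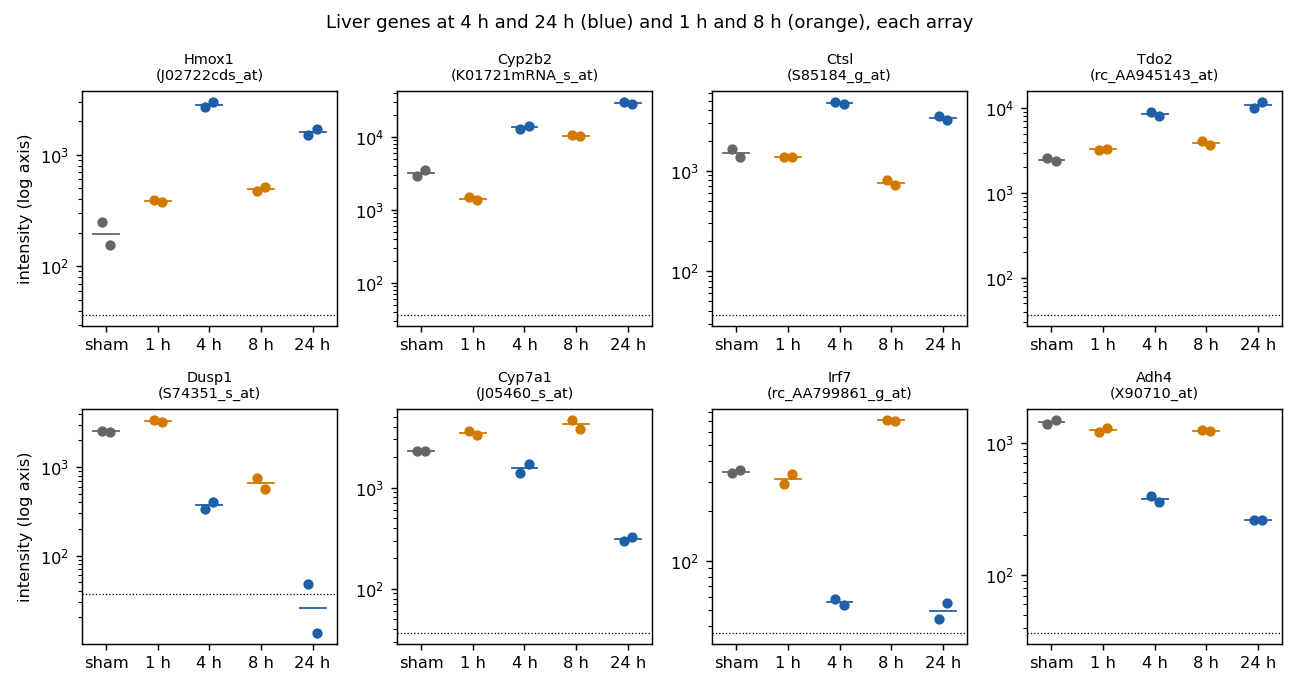
Intensity (log axis) of 8 liver genes on each array, colours and bars as in the pancreas plot: Hmox1, Cyp2b2, Ctsl and Tdo2 higher at 4 h and 24 h, Dusp1, Cyp7a1, Irf7 and Adh4 lower. The blue and orange points do not overlap in any panel, and sham lies nearer the orange points for Ctsl, Dusp1 and Adh4 among others.

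Genes for building ribosomes formed a group on the higher side. The list of nucleolus and ribosome assembly genes was drawn up after the values were seen, so its count is no independent evidence. Of its 14 tested genes, 8 were separated higher and none lower, beside 1.69% of all tested genes separated higher, all 14 lay above 0, and the median difference was 1.22. At 4 h and 24 h 9 of the 14 lay above both sham arrays on every array, beside 10.9% of all tested probe sets, 2 lay below sham, beside 15.4%, and at 1 h and 8 h none lay above. None of the 14 was called by its brightest probe set in any of the 3 tests, beside 2.55%, 5.15% and 4.23% of all tested genes. The 43 tested ribosomal protein genes, which code for the building blocks themselves, had a median of 0.16 with 0 separated. Of these 43, 32 lay above 0, beside 1601 of 3143 tested genes. On every array of 4 h and 24 h 13 of the 43 lay above sham and 0 below, beside 10.9% and 15.4% of all tested probe sets.

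Nop58, a core protein of the particles that methylate ribosomal RNA, read 522.5 and 530.1 at 4 h and 549.3 and 389.1 at 24 h against 128.5 and 150.2 at 1 h and 85.4 and 102.1 at 8 h, with sham at 197.9 and 111. Polr1b, a large subunit of RNA polymerase I, was lower in signal, at 107.7 to 251.7 against 27.3 to 86.6. Only arrays of 4 h and 24 h exceeded the array's median for Polr1b, so it was kept for testing only through the side where it was high. Ncl, nucleolin, gave the brightest reading of the group, 1976.1 to 2208.5 against 794.3 to 1180.7 on M55015cds_s_at, and its second probe set was separated by 1.25 on the log2 scale. These examples were taken from the separated genes, so their being apart at low and high signal was set by that choice.

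Gnl3, a nucleolar GTP-binding protein, read 653.4 to 1041.9 against 204.1 to 367.9 on rc_AA892598_at, and Dkc1, the enzyme that turns uridine into pseudouridine in ribosomal RNA, 185.9 to 358 against 36.2 to 147 on rc_AA892562_g_at. Each had a second probe set separated the same way, while rc_AA800679_at, also of Gnl3, differed by -0.48 and was not separated. Wdr74, Pelo and Ddx21, factors of ribosome maturation, ribosome rescue and RNA unwinding, differed by 1.48, 1.52 and 1.29. Mybbp1a, a nucleolar repressor of transcription that is not in the list, was just inside the limit at 2-fold on 1 probe set, and its other probe set differed by 0.33 and was not separated.

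The E-box CACGTG, which reads the same on both strands and is the letter sequence bound by Myc and related factors, was searched in promoters of 300 bases, from 250 before to 50 after the start site (RefSeq, GRCr8). It was present in 3 of the 14 promoters of the list (21.4%), beside 6.42% of 33469 rat promoters. Dkc1 and Gnl3 held it among the 8 separated genes, and both stretches are shown, with the motif in capitals, because they are the separated genes of this group with a match. The Gnl3 stretch lies at chr16:6219777-6219832 on the minus strand and the Dkc1 stretch at chrX:157751442-157751497 on the plus strand. A match is a description of letters, not a binding site.
Gnl3: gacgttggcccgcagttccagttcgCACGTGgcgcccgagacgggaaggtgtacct
Dkc1: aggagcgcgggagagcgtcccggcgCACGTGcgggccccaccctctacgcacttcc

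**Figure D4:**
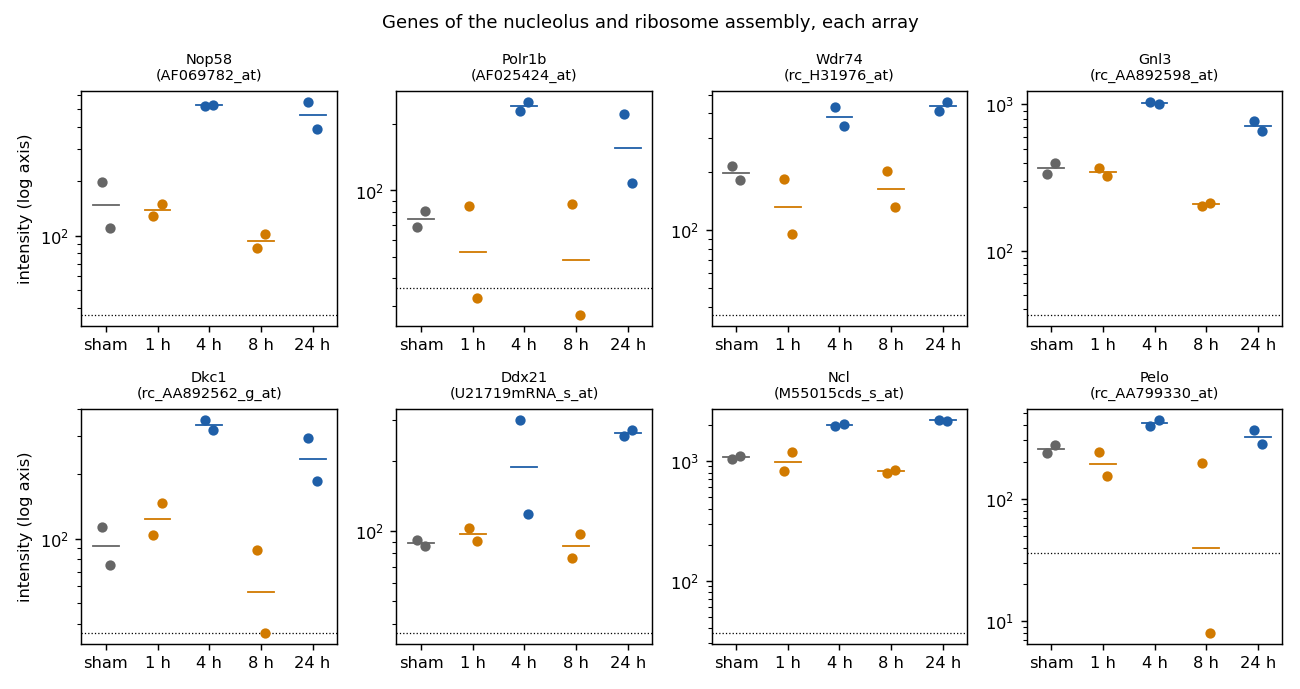
Intensity (log axis) of 8 genes of the nucleolus and ribosome assembly on each array, colours and bars as in the pancreas plot. The blue points of 4 h and 24 h lie above the orange points of 1 h and 8 h and above the grey sham points in all panels, and 1 or 2 orange points of Polr1b, Dkc1 and Pelo lie under the floor.

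Splicing factors and nuclear RNA-binding proteins, a list also made after the values were seen, leaned the same way, with 21 of 26 tested genes above 0, a median of 0.49 and 3 separated higher, beside 1601 of 3143 tested genes above 0 and 1.69% separated higher. Srsf2, a splicing factor, read 1811 to 2051.8 against 569.7 to 940.1, and sham (1043.7 and 940.5) lay between, while its other probe set differed by -0.13 and was not separated. Sfpq, a partner of the spliceosome, had both probe sets separated, at 1.29 and 1.31 on the log2 scale. Plrg1, a spliceosome component, read 604.6 and 560.6 at 4 h and 1616 and 1732 at 24 h against 349.7 to 448.5, and it rose from 4 h to 24 h by 1.52 (SE 0.15, adjusted p = 0.00197).

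On the lower side outside the pancreatic genes, Dusp1 had the largest difference among separated probe sets with a gene symbol. This phosphatase switches off MAP kinases and is induced by glucocorticoids. On S74351_s_at it read 340.1 and 399.7 at 4 h and 48.1 and 13.3 at 24 h, against 3419.7 and 3244.6 at 1 h and 760 and 569.9 at 8 h, with sham at 2557.8 and 2518.5. The sides did not overlap, yet each fell with time: it fell by 2.34 from 1 h to 8 h (SE 0.21, adjusted p = 0.00193) and fell by 3.14 from 4 h to 24 h (SE 0.21, adjusted p = 0.000501), the latter a size that depends on the floor because 1 of the 24 h arrays lay under it. With a floor at the 10th percentile the adjusted p of the former was 0.0589. The burn mean fell by 2.57 below sham (SE 0.17, adjusted p = 0.00137). All 3 tested Dusp1 probe sets were separated, at -3.58, -2.95 and -2.50.

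Cyp7a1, the rate-limiting enzyme of bile acid synthesis, read 1405.9 and 1708.8 at 4 h and 293.8 and 326.4 at 24 h, against 3674.7 and 3328.3 at 1 h and 4700.9 and 3832.9 at 8 h. Sham (2289.4 and 2309.2) lay between the sides, which were 5.56-fold apart. It fell by 2.32 from 4 h to 24 h (SE 0.18, adjusted p = 0.000814), a call that held also with only the arrays of those times (adjusted p at most 0.0392 over the settings other than an array left out). Of 29 tested genes of cholesterol and bile acid metabolism, 27 lay below 0, with a median of -0.59 and 2 separated lower, beside 1542 of 3143 tested genes below 0 and 1.97% separated lower. At 4 h and 24 h 19 of the 29 lay below sham on every array, beside 15.4% of all tested probe sets.

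Fdft1, squalene synthase, which makes the first sterol-committed product, read 849.5 to 1000 against 1955.7 to 2562.5 on M95591_at, and 2 of its 4 probe sets were separated, with -0.95 and -0.89 on the others. Msmo1, an oxidase of later sterol synthesis, read 687.9 and 610.1 at 4 h and 1933.6 and 2089.2 at 24 h against 2529.8 to 3758.5. It rose from 4 h to 24 h by 1.63 (SE 0.16, adjusted p = 0.00206), in the opposite direction to Cyp7a1. Acly, which supplies acetyl units for sterols and fatty acids and was singled out after its values were seen, had all 3 probe sets separated lower, at -1.84, -1.30 and -1.21. All 3 genes had every array of 4 h and 24 h below sham.

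Interferon-induced genes of defence form a list made after the values were seen. Of its 26 tested genes 22 lay below 0, with a median of -0.43, 3 separated lower and none higher, beside 1.97% of all tested genes separated lower and 1542 of 3143 below 0. It shares 5 genes with the lymphocyte and antigen presentation markers. Irf7, the transcription factor that amplifies the interferon response, read 58.9 and 53.6 at 4 h and 44.5 and 55.2 at 24 h, against 290.3 and 334.1 at 1 h and 714.8 and 706.8 at 8 h, with sham at 341.9 and 352.6. Its 8 h arrays were the highest and its sides were 8.92-fold apart, while its second probe set was lower by 1.37 with overlapping arrays. Mx1, an antiviral GTPase, was 3.32-fold lower, with 3 of 4 arrays of 4 h and 24 h under the floor. RT1-S3, a class I histocompatibility gene, had 3 probe sets separated, of which the brightest read 445.2 to 545.7 against 989 to 1614.1. Relatives of this family may share its signal, which was not tested.

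The interferon response element, searched as GAAA, any 2 bases and GAAA again, and on the other strand as TTTC, any 2 bases and TTTC, was present in 12 of the 23 genes of the list with a promoter in the table (52.2%), beside 3.92% of all 33469 promoters. It was in Irf7 and RT1-S3 but its letters were not in the Mx1 window, and nothing is drawn from that. The Irf7 stretch lies at chr1:205800058-205800117 on the minus strand, 69 bases before the start site, and the RT1-S3 stretch at chr20:2675391-2675450 on the plus strand. Tap1, which loads peptides for presentation, is shown as the list member with 1 separated probe set of 2 (-1.39 on X57523_g_at, -0.18 on the brighter X57523_at), at chr20:4668630-4668689 on the minus strand. Capitals mark the element.
Irf7: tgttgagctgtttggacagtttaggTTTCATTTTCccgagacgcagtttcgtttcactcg
RT1-S3: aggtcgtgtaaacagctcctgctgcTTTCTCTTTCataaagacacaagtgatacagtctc
Tap1: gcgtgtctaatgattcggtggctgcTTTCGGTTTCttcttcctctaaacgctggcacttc

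Complement and clotting proteins, which hepatocytes secrete into plasma, were all below 0, 19 of 19 tested genes with a median of -0.45, and 2 were separated lower, beside 1542 of 3143 and 1.97% of all tested genes. C1s, a protease of the first complement component, read 1862.5 and 1347.1 at 4 h and 1174.2 and 1456.5 at 24 h, against 3766.7 and 2875.7 at 1 h and 5193 and 4505.6 at 8 h, and sham (1969.2 and 2368) lay between the sides. C9, which forms the pore of the membrane attack complex, was high at 8 h (15602 and 15002.6), while the 1 h arrays (6771.4 and 5685.9) lay near sham (5754.8 and 5871.1) and those of 4 h and 24 h ran from 3564 to 5105.5. The separation of C9 thus rested mostly on 8 h.

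Steroid, alcohol and conjugation enzymes were among the lower genes. Hsd17b2, which inactivates sex steroids, read 597.6 and 810.2 at 4 h and 1540.4 and 1500.6 at 24 h, against 6762 and 6548.5 at 1 h and 2285.3 and 2188.8 at 8 h, all below sham at 7878.4 and 8249.3. The burn mean fell by 2.02 against sham (SE 0.14, adjusted p = 0.00137), and 8 h fell by 1.57 against 1 h (SE 0.18, adjusted p = 0.00438). Adh4, an alcohol dehydrogenase, read 259.2 to 398.3 against a tight 1206.3 to 1298.7, and sham was 1387.7 and 1499.9.

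Akr1c13, an aldo-keto reductase, differed in where sham lay. It read 193.3 to 295.7 at 4 h and 24 h, where sham also lay (296.6 and 221.1, the former above those arrays), and 920.6 to 1489.1 at 1 h and 8 h. Ugt2b, a glucuronosyltransferase, read 1573.8 and 1569.1 at 4 h and 683 and 795.3 at 24 h against 3098.5 to 3500.4, but its other 2 probe sets were not separated (-0.05 and -3.64), and probes of this family may share signal. Slco2a1, a prostaglandin transporter, read 1910.9 to 2128.3 at 4 h and 957.2 and 1016.1 at 24 h against 2307.2 to 4440.7.

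Regulators and carriers of the lower set ended the description. Pck1, the enzyme that commits carbon to glucose synthesis, read 14928.8 and 17048.9 at 4 h and 7671.1 and 7485.3 at 24 h against 21713.8 to 23974.1, with sham at 20047.5 and 19619.6. Foxa2, a pioneer factor of hepatocytes and a relative of Foxa3, was lower (83.5 to 161.7 against 209.5 to 418.7), opposite in side to Foxa3. Cebpa, which maintains hepatocyte genes, read 668.1 and 649.4 at 4 h, just under the other side (700.3 to 888.9), and 213.5 and 193.8 at 24 h, and it fell by 1.70 from 4 h to 24 h (SE 0.16, adjusted p = 0.00162). Slc25a30, a mitochondrial carrier, was 7.26-fold lower, from 47.7 to 159.4 against 398.4 to 1521.9.

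An unnamed probe set chosen after its values were seen, M23995_g_at, had the largest difference on the higher side. It read 2725.2 and 2483.1 at 4 h and 3116.7 and 3397.2 at 24 h, 1084.6 and 987.9 at 1 h and 8.1 and 8.8 at 8 h, with sham at 1093.1 and 1030.3. Sham and 1 h were alike, and the 8 h arrays alone dropped under the floor. It fell by 4.83 from 1 h to 8 h in the fit with the floor (SE 0.15, adjusted p = 2.87e-05).

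**Figure D5:**
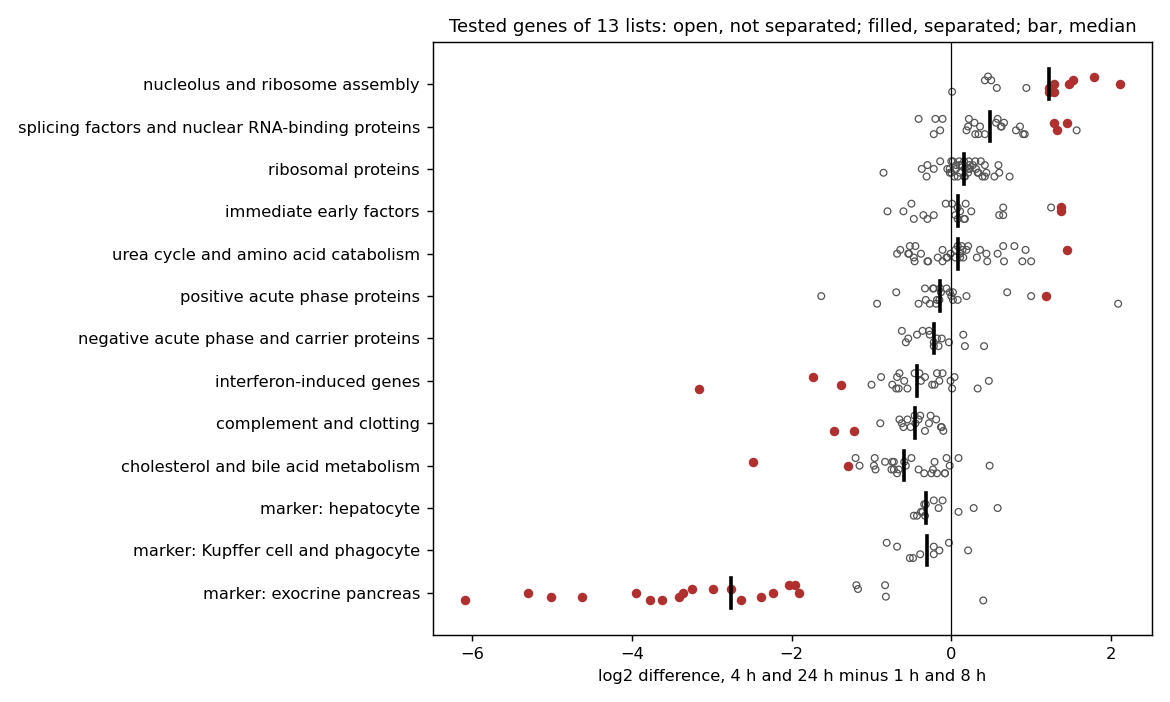
Log2 difference of 4 h and 24 h from 1 h and 8 h for the tested genes of 13 lists, 1 point a gene by its brightest probe set (filled where separated, bar at the median). The pancreas list has its median at -2.76 and the nucleolus list at 1.22, while ribosomal proteins lie around 0.16; the nucleolus, splicing and interferon lists were made after the values were seen.

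Where a separated gene had further probe sets, they mostly had its direction. For 70 genes there were 107 other tested probe sets, of which 96 differed in the same direction, 37 of them at least 2-fold and 22 separated. The other 11 had the opposite sign, and 0 of those were separated. Fos, an immediate early factor chosen after its values were seen, is one case of disagreement, with -1.32 and separated on X06769cds_at beside 0.01 and -0.06 on its other 2 probe sets.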

How the data were processed

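Total RNA of rat liver was measured on 10 arrays, 2 for each of 5 groups, which were taken from the sample titles. The authors deposited linear intensity values, and how they were computed is not stated in the labels. Trimmed means (2% off each end) of the arrays ran from 500.91 to 501.04, so the values were used as deposited. Values under 36.4 were raised to it and put on log2. Probe sets above the array median on at least 2 of 10 arrays were kept (5285 of 8799). The platform's probe table gave 7018 probe sets 1 symbol and 308 several, and 1473 were not listed; names come from single symbols. A gene in a list is represented by its brightest tested probe set. Promoter sequences come from RefSeq (GRCr8).

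The split between 4 h and 24 h and 1 h and 8 h was chosen from these values and has no test. The burn mean against sham, 24 h against 4 h and 8 h against 1 h were tested in 1 fit of 5 groups with limma 3.58.1 (moderated statistic, two-sided, 5 residual degrees of freedom, Benjamini-Hochberg over 5285, threshold 0.05) in R 4.3.3, tested on simulated data. No depth exists for arrays; their number limits the precision. The members, the 25 process and 11 marker lists and the rules were chosen with earlier results of these data known, and 3 lists (nucleolus, interferon, splicing) after the values were seen. Named genes were the 12 with the largest separated difference in each direction, up to 3 separated genes among the largest of each process list, and, per test and direction, the 4 called separated genes that changed most; others are marked. Alternatives were quantile normalization, other floors, no filter, plain probe set designs, other folds, a variance model with trend and robust estimate, a replicate block, fewer arrays in the fit and each array left out. Arrays with the same replicate number had deviations from their group means that correlated between 0.011 and 0.17 over 10 pairs of groups, so the numbers were not taken to pair the samples.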

Additional observations from a re-analysis of the deposited data

Results flagged for a closer look

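For 26 separated probe sets every array of 4 h and 24 h lay on one side of both sham arrays and every array of 1 h and 8 h on the other, 19 lower and 7 higher at 4 h and 24 h. The distance from sham could be small on one side, as for Pck1, whose mean at 1 h and 8 h lay 0.20 above sham on the log2 scale. Whether each side differed from sham was not tested. This difference between the sides was not tested, and the split was chosen on these values.

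Of the 26, 9 belong to the exocrine pancreas markers. Their log2 differences of 4 h and 24 h from 1 h and 8 h were -6.09 for Prss1, -5.30 for Ctrb1, -5.01 for Cpb1, -4.45 and -3.95 for the 2 Pnlip probe sets, -3.62 for Rnase1, -3.41 for Prss2, -3.25 for Cela2a and -1.96 for Clps. The other lower ones with a symbol were Cyp7a1 (-2.48), Ugt2b (-1.58), C1s (-1.47), Tap1 (-1.39), Cp (-1.25), Serpinb9 (-1.21), Acsl1 (-1.12) and Pck1 (-1.05). The unnamed M23721_at and rc_AA852046_s_at were lower too, by a log2 difference of -4.29 and -1.38. The 7 higher ones were Slc3a2 (1.63), Srsf2 (1.45), Egr1 (1.37), Ipo7 (1.21), Ssr3 (1.20), Kit (1.19) and Ddx39b (1.01).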

How the results depend on the processing

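The counts of separated probe sets moved with the definition: 60 higher with plain probe set designs, 224 higher and 216 lower at 1.5-fold, 317 and 326 with no fold minimum, and 206 and 200 at 2-fold with overlap allowed. Separated probe sets with sham between numbered 4 higher and 12 lower with plain designs, and 10 lower with the pancreatic genes left out, a setting chosen after seeing the data. Probe sets called higher and lower in the burn mean were 44 and 47 with plain designs, 134 and 183 with an intensity trend and robust variance, and 0 and 2 with the 8 burn arrays as 1 group (329 at an unadjusted p under 0.05 in limma); lower calls were 165 with the 50th percentile floor and 133 with no filter. For 24 h against 4 h they were 71 and 108 with plain designs and 30 and 41 with only the groups compared, and higher calls were 183 with no filter and 202 with the trend. For 8 h against 1 h they were 180 and 251 with the higher floor, 49 and 70 with plain designs, 228 and 273 with the trend and 0 and 0 with only the groups compared (983 unadjusted in limma); higher calls were 169 with no filter. Plain designs test fewer probe sets; other causes were not tested.

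With each array left out in turn, separated probe sets ranged from 102 to 150 higher and 108 to 153 lower, and those with sham between from 6 to 23 and 17 to 29. Calls ranged from 17 to 52 and 11 to 77 for the burn mean, 37 to 104 and 56 to 162 for 24 h against 4 h, and 36 to 87 and 33 to 115 for 8 h against 1 h. The lone array of a reduced time was taken to have the spread of the other groups. The replicate block gave 65 and 84, 123 and 202, and 101 and 137 calls, so it moved no count by over 1.5 times. Of 696 values of named genes in the split under the alternatives, 517 moved by less than the spread between arrays, 179 by more and 0 changed sign; 58 tested values of named genes lost their call.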
